A study of Caenorhabditis elegans with 3 samples.

Results

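Small nuclear RNA (snRNA) genes were examined as targets of ELT-3 chromatin immunoprecipitation sequencing (ChIP-seq). The members were the genes of annotated biotype snRNA on the nuclear chromosomes of Caenorhabditis elegans (genome build ce11, the same assembly as WBcel235, Ensembl release 115), which are 129 of 46890 nuclear genes. ChIP was run on whole, mixed-sex L1 larvae of strain OP75, which has the genotype unc-119(ed3) III; wgIs75 and stably carries ELT-3 fused at its C terminus to GFP-FLAG. The 3 libraries formed 1 group of 2 biological replicates, the second with 2 technical libraries that share an alignment and count as 1 replicate. No other genotype, stage or treatment was compared, the named control experiment was not analysed here, and whole animals mix tissues, so a peak cannot be placed in a cell type. The tagged protein comes from a transgene, and the labels do not say which alleles of elt-3 the strain keeps.

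Spliceosomal snRNAs (U1, U2, U4, U5 and U6) are short, non-coding RNAs that recognise splice sites and form the catalytic core of the spliceosome. Nematodes also make spliced leader (SL) RNAs, which donate a short leader to the 5′ ends of messenger RNAs by trans-splicing, and the nematode-specific SmY RNAs, which associate with them. Genes of this kind are read by RNA polymerase II, or by RNA polymerase III for U6, from a compact promoter in which the complex SNAPc binds a proximal sequence element upstream of the start. ELT-3 is a GATA transcription factor of the hypodermis, the epidermal tissue that makes the cuticle, and GATA factors bind WGATAR, in which W stands for A or T and R for A or G.

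The label spliceosomal holds for part of the members. By symbol, the annotation names 12 sls-1 genes (SL1 RNA), 18 sls-2 genes (SL2 RNA) and 10 smy genes, and it also lists mir-1831, a 22-base gene inside the snRNA gene sup-39, as an snRNA. The annotation gives no U class for the rest, so they were grouped by sequence, joining genes of at least 70% identity, and each family is called by its most common length. The 102-base family has 24 genes, 22 with ACAGAGA, a word known from U6 snRNA. The 187-base family has 19 genes, 18 with GTAGTA, the branch-point-pairing word known from U2. The 165-base family has 13 genes, 12 with ACTTACC, known from the 5′ end of U1, and it includes sup-39 and sup-6. The 122-base family has 12 genes, 11 with GCCTTTTAC, known from the U5 loop. Families of 144 and 105 bases have 5 genes each, ZK1251.14 joined the sls-2 genes to make 19, and 10 genes stood outside these families.

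The peaks nearest to snRNA starts are shown by the sequence beneath them. Of the 14 snRNA genes with a summit in the IDR list, which the authors thresholded by the irreproducible discovery rate, 9 had it between 64 and 22 bp upstream of the annotated 5′ end, with a median of 47 bp. Of these, 7 are printed to show the promoter stretch under the summit, taken from the RefSeq genome of build WBcel235, 5′ to 3′ on the gene's strand. Each line has the 110 bases before the gene and its first 10 bases. Capitals mark matches to CGNAACCC and TGTCGGNA, the words most shared by snRNA upstream sequences (N is any base), and to TATATAA. The positions are C52E4.8 at chrV:11980008-11980127 (plus strand), sls-2.1 at chrII:5844755-5844874 (plus strand), W05B2.8 at chrIII:10989569-10989688 (plus strand), sls-2.2 at chrII:5543488-5543607 (plus strand), F38E11.10 at chrIV:9444532-9444651 (plus strand), F54D8.7 at chrIII:5080889-5081008 (minus strand) and sup-6 at chrII:12944958-12945077 (minus strand).
C52E4.8: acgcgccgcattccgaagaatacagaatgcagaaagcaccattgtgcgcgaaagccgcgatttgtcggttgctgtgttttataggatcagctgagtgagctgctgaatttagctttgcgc
sls-2.1: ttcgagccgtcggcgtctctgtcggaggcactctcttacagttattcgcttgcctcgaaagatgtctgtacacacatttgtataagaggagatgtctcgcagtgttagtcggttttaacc
W05B2.8: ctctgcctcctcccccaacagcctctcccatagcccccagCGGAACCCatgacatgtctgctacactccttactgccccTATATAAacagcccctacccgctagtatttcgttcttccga
sls-2.2: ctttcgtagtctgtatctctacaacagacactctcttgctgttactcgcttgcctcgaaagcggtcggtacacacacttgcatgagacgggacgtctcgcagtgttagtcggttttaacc
F38E11.10: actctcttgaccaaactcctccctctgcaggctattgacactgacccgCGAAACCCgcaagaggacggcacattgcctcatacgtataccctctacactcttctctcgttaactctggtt
F54D8.7: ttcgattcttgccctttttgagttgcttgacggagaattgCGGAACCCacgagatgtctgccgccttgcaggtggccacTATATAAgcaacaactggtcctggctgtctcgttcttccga
sup-6: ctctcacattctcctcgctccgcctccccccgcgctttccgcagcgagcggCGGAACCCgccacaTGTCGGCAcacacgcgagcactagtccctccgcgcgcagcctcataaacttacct

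CGNAACCC began 70 bp upstream of W05B2.8 and F54D8.7, 62 bp upstream of F38E11.10 and 59 bp upstream of sup-6, and sup-6 also had TGTCGGNA 45 bp upstream. TATATAA began 31 bp upstream of W05B2.8 and F54D8.7, both of the 102-base family. C52E4.8, sls-2.1 and sls-2.2 held none of the 3 words. The summits lay 41 bp upstream of C52E4.8, 55 bp of sls-2.1, 52 bp of W05B2.8, 47 bp of sls-2.2, 44 bp of F38E11.10, 64 bp of F54D8.7 and 22 bp of sup-6.

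Over the whole class, the most frequent 8-base word in the 119 distinct 100-bp upstream sequences was CGGAACCC, found in 30 of them. With 1 open position, CGNAACCC was upstream of 46 of 129 snRNA genes (35.7%), against 44 of 19973 protein-coding genes (0.22%) and 2 of 612 tRNA genes in windows of equal length on the gene's strand. It began between 74 and 56 bp upstream, with a median of 61 bp. TGTCGGNA, the most shared word once CGNAACCC was masked, was upstream of 34 snRNA genes (26.4%), against 35 protein-coding genes (0.175%), with a median start of 47 bp upstream. TATATAA was upstream of 18 snRNA genes (14.0%), against 566 protein-coding genes (2.83%), and 15 of the 18 were in the 102-base family. Counted on the snRNA strand or the other, CGNAACCC was again in 46 snRNA upstream sequences. These matches describe letters, and no binding to them was measured.

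Genes with a summit had the first word in some cases and lacked it in others. An IDR summit lay near or upstream of 7 of the 46 snRNA genes with CGNAACCC (15.2%) and of 7 of the 83 without it (8.43%). The 83 include all 12 sls-1 genes, which had 0 summits and lie in repeated sequence. The part of repeated sequence in this contrast was not tested. Of the 9 genes with a summit 64 to 22 bp upstream, 4 had CGNAACCC, 3 had TGTCGGNA and 6 had either, against 69 of all 129 snRNA genes with either. Elsewhere in the genome CGNAACCC is common, with 4676 sites more than 100 bp from an snRNA gene, counted on both strands. Of these, 19 had an IDR summit within 50 bp. At snRNA genes it was 4 of 44 sites, a larger share.

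**Figure D1:**
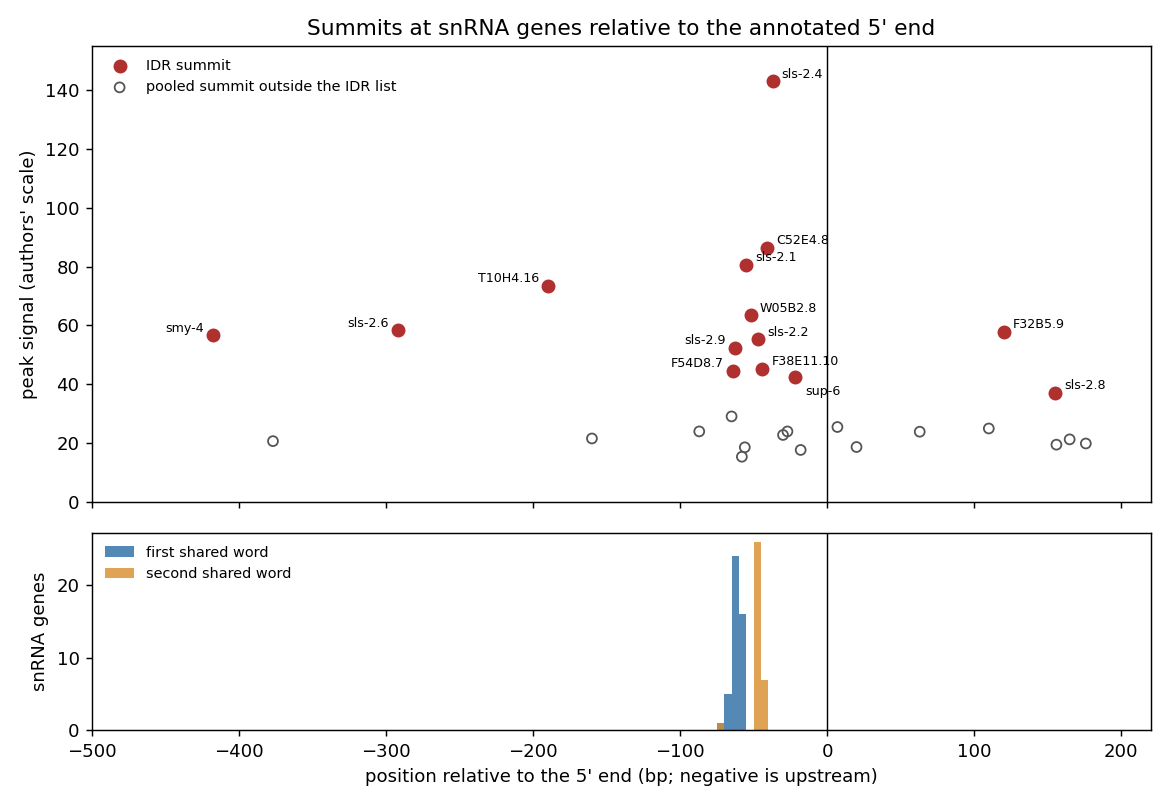
Summits at snRNA genes by distance from the annotated 5′ end (x axis, bp, negative is upstream) and by peak signal on the authors' scale (upper panel, filled points for IDR summits, open points for pooled summits outside the IDR list), with the start positions of the first (CGNAACCC) and second (TGTCGGNA) shared words in 5-bp bins (lower panel, number of genes). Over all snRNA genes, the words span 74 to 38 bp upstream. Of the 9 IDR summits between 64 and 22 bp upstream, 7 lie in that stretch. Among these 7, C52E4.8, sls-2.1 and sls-2.2 have neither word. The summits of sls-2.4 and sup-6 lie nearer the gene, and sls-2.4 has the highest signal, 143.

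Across the class, an IDR summit lay within 100 bp of 11 of 129 snRNA genes (8.53%, exact 95% Clopper-Pearson interval 4.33 to 14.7%), against 1.57% of all nuclear genes (734 of 46890). Within 500 bp upstream it was 12 of 129 (9.3%, interval 4.9 to 15.7%), against 1.52% of all nuclear genes (713). With 9 genes in both sets, 14 genes had either. The window within 100 bp spans the whole gene and 100 bp each side, so it is larger for longer genes. The upstream window has the same length for all genes. Averaged over every circular rotation of the IDR summits along their chromosomes, the mean number of snRNA genes hit would be 0.455 within 100 bp and 0.702 upstream. In the first 100 bp upstream alone, 9 snRNA genes (6.98%) had an IDR summit, against 0.377% of all nuclear genes (177) and a rotation mean of 0.14. The same window held an IDR summit at 27 of 346 snoRNA genes (7.8%). At tRNA genes it was 12 of 612 (1.96%), against a rotation mean of 0.796. Intervals cover counting error only, and genes of one family are alike in sequence, so they are not independent draws.

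Other non-coding classes were read the same way. The snRNA share within 100 bp (8.53%) stood beside 0.383% of 261 miRNA genes (interval 0.0097 to 2.12%), 3.27% of 612 tRNA genes (interval 2.01 to 5.0%), 9.54% of 346 snoRNA genes (6.66 to 13.1%) and 2.23% of 19973 protein-coding genes (2.03 to 2.44%). These shares are not at equal window length. Rotation means in this window were 2.19 tRNA genes, with 20 seen, and 723 protein-coding genes, with 445 seen. Upstream, 9.3% of snRNA genes stood beside 3.45% of miRNA genes, 2.29% of tRNA genes, 11.0% of snoRNA genes and 2.49% of protein-coding genes. Within 100 bp, the snRNA interval overlapped those of snoRNA and tRNA genes. Upstream, it overlapped those of snoRNA (7.89 to 14.8%) and miRNA genes (1.59 to 6.44%), and not that of tRNA genes (1.26 to 3.81%). No difference between classes was tested. snoRNAs guide chemical modification of ribosomal RNA and snRNAs.

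The longer pooled list was deposited as peaks and background for IDR, so it also holds weak peaks and background. Its q-values, or false discovery rates, reach 0.961. In this list, 24 snRNA genes had a summit within 100 bp (18.6%, interval 12.3 to 26.4%), against 12.6% of all nuclear genes and a rotation mean of 3.86 genes. Upstream it was 22 snRNA genes (17.1%), against 7.93% of all nuclear genes and a rotation mean of 5.92. Within 100 bp, the snRNA share of 18.6% stood below those of tRNA (30.1%), snoRNA (25.7%) and protein-coding genes (22.2%) and above that of miRNA genes (3.83%). Protein-coding genes are longer and have larger windows here. Their rotation mean was 4700 genes, with 4429 seen, and that of tRNA genes was 18.1, with 184 seen. Upstream, the snRNA share of 17.1% stood below those of tRNA (19.1%) and snoRNA genes (26.9%) and above those of protein-coding (11.3%) and miRNA genes (10.7%). Distinct pooled summits at snRNA genes numbered 30, and 14 of them lay between 70 and 20 bp upstream.

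**Figure D2:**
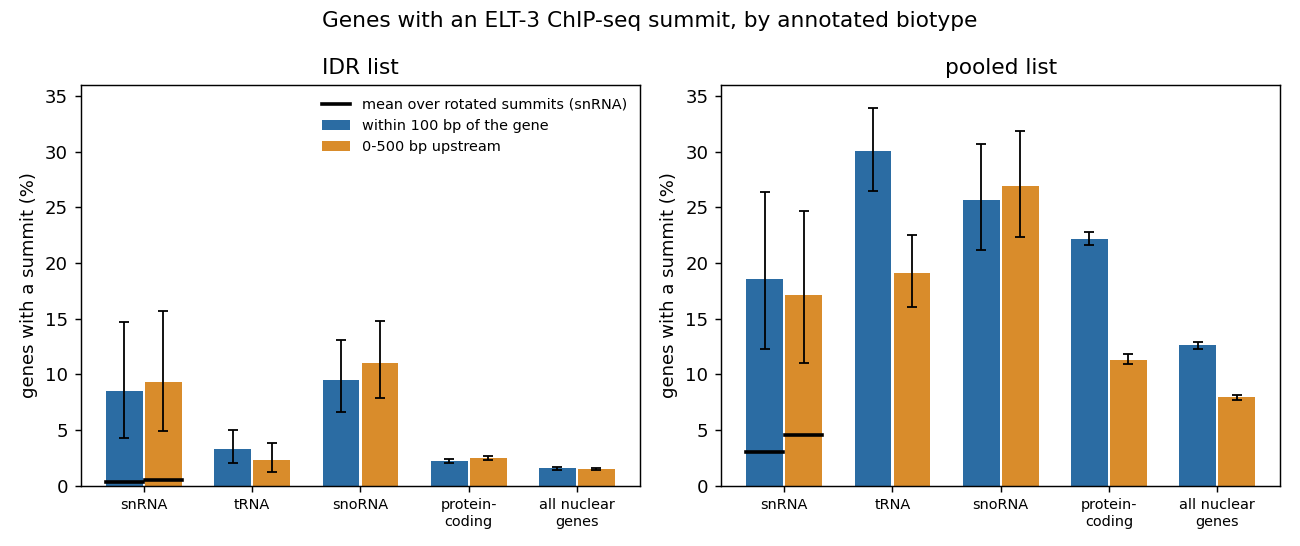
Share of genes (y axis, %) with a summit in the IDR list (left) and pooled list (right), for 5 gene sets (x axis) and 2 windows, with exact 95% intervals as error bars and black lines for the mean snRNA share over rotated summits. snRNA and snoRNA bars are the tallest in the IDR list, and tRNA bars exceed snRNA bars in the pooled list.

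The members with an IDR summit are given by the peak signal that the authors deposited. Its median was 57.3 over the 14 and 48.0 over all 1202 IDR peaks. The strongest was at sls-2.4, an SL2 gene on chromosome I, with a signal of 143 at 37 bp upstream, which ranked 12 of the 1202. C52E4.8, a 144-base gene at chrV:11980118-11980261, had 86.5. sls-2.1 at chrII:5844865-5844974 had 80.6, and T10H4.16 at chrV:15286431-15286532 had 73.4 with its summit 190 bp upstream. W05B2.8 at chrIII:10989679-10989780 had 63.5.
Lower in the list came sls-2.6 (58.4, 292 bp upstream), F32B5.9 (57.9), smy-4 (56.7, 418 bp upstream), sls-2.2 (55.3) and sls-2.9 (52.5, 63 bp upstream). F38E11.10 had 45.2, F54D8.7 had 44.7, sup-6 had 42.6 and sls-2.8 had 37.1. Of the 14 signals, 10 were above the median of the list. Most of the 14 summits were upstream of the gene: F32B5.9 had its summit inside the gene, 120 bp past its 5′ end, and sls-2.8 had it 45 bp past the 3′ end.

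The SL2 genes held the largest number. Of the 19 genes of the sls-2 family, 6 had an IDR summit (31.6%, interval 12.6 to 56.6%), against 8 of the 110 other snRNA genes (7.27%, interval 3.19 to 13.8%), a difference that was not tested. The 6 were sls-2.1, sls-2.2, sls-2.4, sls-2.6, sls-2.8 and sls-2.9, on chromosomes I, II and III. At sls-2.6 and sls-2.8 a protein-coding 5′ end was nearer to the summit than that of the SL2 gene. The 2 sets also differ in repeated sequence. The 26 snRNA genes with under 50% unique 36-base words in the 200 bp upstream, which had 0 summits, were all outside the sls-2 family. The 102-base family (24 genes) had 2, W05B2.8 and F54D8.7, and the 122-base family (12 genes) had 2, F38E11.10 and F32B5.9. The 165-base family (13 genes), the 144-base family (5) and the smy family (10) had 1 each. The 187-base family (19 genes) and the 105-base family (5) had 0 IDR summits and 2 and 1 genes with pooled summits.

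The sls-1 genes, all 12 in a repeated block on chromosome V from 17118154 to 17132107, had 0 summits in the IDR, pooled and replicate 2 lists. Of the 36-base words inside these genes, 0.0% occurred once in the genome, so words of that length do not tell the copies apart. In the 200 bp upstream the share was 21.8% at sls-1.12 and 0.0% at the others. The 200 bp upstream of each sls-1 gene had under 50% of its 36-base words occurring once in the genome (the read length is not given in the sources used here), and 46 of the 129 snRNA genes had an exact copy of their sequence elsewhere. In all, 26 snRNA genes had such repeated upstream sequence, and 0 of the 26 had an IDR or pooled summit. Among the other 103, 14 (13.6%) had an IDR summit and 29 (28.2%) a pooled summit. The part of repeated sequence in these counts was not tested.

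**Figure D3:**
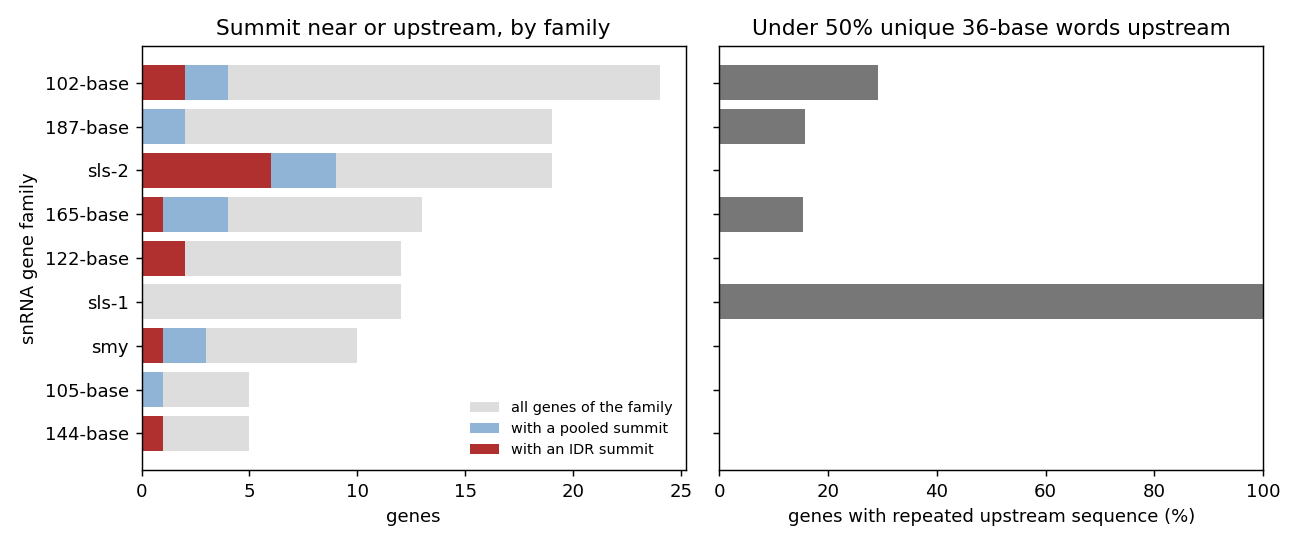
Number of genes per snRNA family (x axis, left panel), with those having a pooled summit (light blue) and an IDR summit (red) overlaid, and the percentage of genes with under 50% unique 36-base words in the 200 bp upstream (right panel). The sls-2 family has the most genes with an IDR summit, 6 of 19, and all 12 sls-1 genes have repeated upstream sequence and no summit.

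The 2 replicates did not weigh equally. All 14 IDR peaks at snRNA genes overlapped a peak of replicate 1, as did all 1202 IDR peaks. At snRNA genes the replicate 1 signals were close to the pooled ones (145 at sls-2.4, 86.9 at C52E4.8, 82.7 at sls-2.1). In replicate 2, 2 of the 14 overlapped a peak, W05B2.8 (4.09) and sls-2.9 (2.51), on a signal scale whose median is 2.65. That is 14.3%, beside 9.73% of all 1202 IDR peaks (117), so few peaks overlapped replicate 2 in either set. At W05B2.8 the replicate 2 summit lay 60 bp upstream, against 52 bp in the IDR list. Taking the 1202 strongest peaks of replicate 2 alone left 1 snRNA gene within 100 bp and 2 upstream, against 11 and 12 for replicate 1 alone. In the full replicate 2 list, 2 of 129 snRNA genes had a summit within 100 bp (1.55%, interval 0.188 to 5.49%), against 5.84% of all nuclear genes and a rotation mean of 1.63 genes. Within 500 bp upstream it was 5 (3.88%, interval 1.27 to 8.81%), against 2.14% of all nuclear genes and a rotation mean of 2.46. In the first 100 bp upstream it was 1, W05B2.8, against a rotation mean of 0.516. The others, at smy-6, sls-2.10, B0213.24 and W04G5.11, had their summits 429 to 479 bp upstream. The 5.84% includes longer genes with larger windows, so it is not at equal window length. In this full list, the snRNA count over its rotation mean was 1.23 within 100 bp and 2.03 upstream. In the full replicate 1 list these ratios were 6.07 and 3.64. In the shorter, thresholded IDR list they were 24.2 and 17.1, which is not at equal stringency. Counts at snRNA genes thus rest on replicate 1, with W05B2.8 the gene whose summits in both replicates lay within 100 bp upstream.

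GATA sites were sparse at these summits. WGATAR lay within 50 bp of 1 of 14 IDR summits at snRNA genes (7.14%, interval 0.181 to 33.9%), against 468 of all 1202 IDR summits (38.9%, interval 36.2 to 41.8%). Windows 500 bp up and down of the same summits held it in 1 of 28 (3.57%) at snRNA genes, against 499 of 2404 (20.8%) over all IDR summits. WGATAR lay near 3 of 20 IDR summits at tRNA genes, 8 of 44 (18.2%) at snoRNA genes and 284 of 788 at protein-coding genes. The interval of the snRNA share holds the 20.8% of flanks and stops short of the 38.9% of all IDR summits, but this depends on the motif and the window. With WGATAR within 100 bp it was 4 of 14 (28.6%, interval 8.39 to 58.1%), against 55.6% of all IDR summits, which that interval holds. With GATAA within 50 bp it was 1 of 14 (7.14%, interval 0.181 to 33.9%), against 32.5% of all IDR summits, which is also inside. GATA within 50 bp gave 3 of 14 (21.4%, interval 4.66 to 50.8%), against 60.1%, which is outside. GATAA within 100 bp gave 3 of 14, with the same interval, against 51.9%, also outside. GATA within 100 bp gave 8 of 14 (57.1%, interval 28.9 to 82.3%), against 80.3%, which is inside. The 9 summits 64 to 22 bp upstream held 0 WGATAR sites.
The 1 site was at smy-4, an SmY gene. The window of 50 bp each side of its summit, chrV:14095067-14095167 on the minus strand, is shown with the site in capitals.
smy-4: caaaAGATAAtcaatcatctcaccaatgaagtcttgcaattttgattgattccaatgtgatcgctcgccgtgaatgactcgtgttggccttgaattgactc

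**Figure D4:**
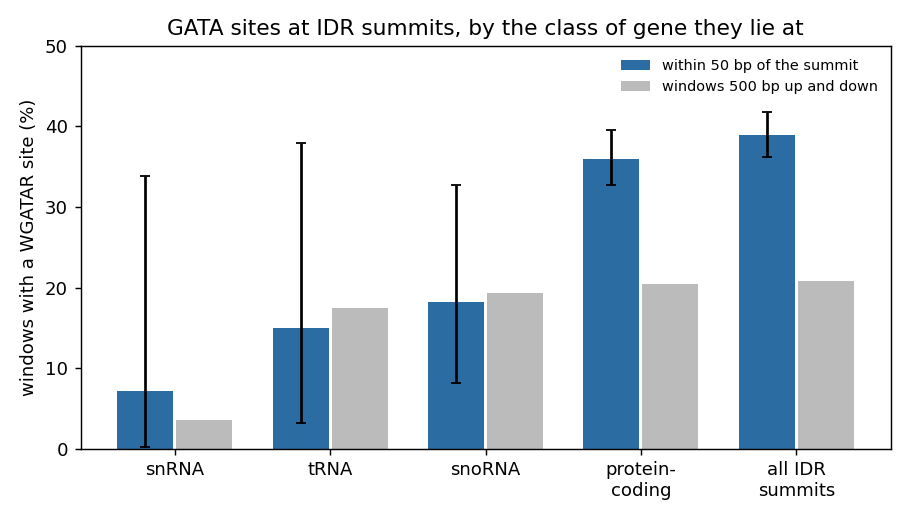
Share of windows with a WGATAR site (y axis, %) within 50 bp of IDR summits (blue, exact 95% intervals) and in windows 500 bp up and down (grey), by the class of gene the summit lies at (x axis). The snRNA share is 7.14%, and the share over all IDR summits is 38.9%.

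Many snRNA genes lie close to protein-coding ones, and the summits were read against both. A protein-coding promoter window (1000 bp upstream to 200 bp downstream of a 5′ end) held 7 of the 14 IDR summits at snRNA genes (exact interval 23 to 77%), against 530 of all 1202 IDR summits (44.1%). In the narrower window of 500 bp upstream to 100 bp downstream it was 3 of 14 (21.4%), against 35.0% of all IDR summits. At 2 of the 14, sls-2.6 (97 bp from hgo-1) and sls-2.8 (40 bp from Y75B8A.23), a protein-coding 5′ end was nearer than that of the snRNA gene, and for the other 12 the snRNA 5′ end was the nearer. The nearest was 354 bp away at C52E4.8 (snr-4), 580 bp at sls-2.4 (egg-5), 1754 bp at W05B2.8 (col-94) and 3269 bp at sup-6 (F58G1.7). For 11 of the 14, an snRNA 5′ end was the nearest of all annotated genes.
The 5′ ends of 65 of the 129 snRNA genes lie inside a protein-coding gene, and 6 of these 65 had an IDR summit, as did 8 of the 64 outside. Where the snRNA 5′ end itself lay in a protein-coding promoter window, 7 of 30 genes (23.3%) had an IDR summit, against 7 of 99 others (7.07%), so the 2 locations cannot be told apart for those 7.

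Of the genes with pooled summits alone (15 genes), the 5 with the highest signal were sls-2.17 (29.1), H27M09.6 (25.5), F08G2.10 (25.0), sls-2.5 (24.0) and B0213.24 (24.0), against the list median of 18.5. sls-2.17 and sls-2.5 had their summits 65 and 27 bp upstream, and B0213.24 had it 87 bp upstream. H27M09.6 and F08G2.10 had theirs inside the gene, 7 and 110 bp past the 5′ end. q-values, the false discovery rates deposited by the authors, were 0.0385 for sls-2.17 and 0.116 to 0.178 for the other 4. Among the remaining genes with pooled summits alone they were higher, up to 0.922 at smy-9. mir-1831 and sup-39 share 1 pooled summit, 30 bp upstream of sup-39.

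Genes for proteins that act with snRNAs were read in the same list. Of 69 genes of the spliceosome and of snRNA synthesis found in the annotation, 3 had an IDR summit in the promoter window (4.35%, interval 0.906 to 12.2%), against 3.44% of all protein-coding genes (688 of 19973), a share near the background. ints-4, a subunit of the Integrator complex that processes snRNA 3′ ends, had a summit 32 bp past its 5′ end with a signal of 68.5 and a WGATAR site. prp-19, a splicing factor, had 1 at 621 bp upstream (60.7), which was 54 bp from K10D2.5. snr-4, a Sm core protein, shares the summit of C52E4.8, 354 bp upstream of snr-4.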

How the data were processed

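ELT-3 ChIP-seq peak lists of whole L1 larvae were analysed. The authors deposited lists in narrowPeak layout for each biological replicate, for both pooled, and for peaks passing IDR, on ce10 and ce11. The ce11 lists were used. Each peak has a signal value and a −log10 q-value, both deposited by the authors, and a summit (start plus offset), taken 1-based. Which aligner and peak caller made them is not given in the sources used here. Depth is unknown, since reads are not counted in the lists. The signal scale differs between lists, so signals were compared within a list.

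Members, gene lists and words were chosen with earlier results of these data known. Genes came from Ensembl release 115 and symbols from RefSeq, matched for all 129. Families joined genes at 70% identity of global alignments (Biopython). Rotation means were computed exactly from the gaps between summits, with no p-value. Named genes were all with an IDR summit, the 5 strongest with pooled summits alone, and listed proteins with an IDR promoter summit; 4 of 73 listed symbols had no match. The distance bands 70 to 20 bp and the words with an open position were chosen after seeing the data. Counting was tested on simulated peaks. Replicate 2 also has 25 mitochondrial peaks, not used.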

Additional observations from a re-analysis of the deposited data

How the results depend on the processing

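Of 41 alternatives run, 33 stayed close to the main value (within 1.5 times for counts, within the exact interval for shares) and 8 moved. To leave out each replicate in turn, peaks of the other replicate's own list were taken, without a new IDR step. With the 1202 strongest, in place of the IDR list, 1 to 11 snRNA genes had a summit within 100 bp and 2 to 12 upstream. In place of the pooled list it was 2 to 24 and 5 to 23, where replicate 2 has only 4055 nuclear peaks. The low values are those of replicate 2 alone, whose peaks are 596 bp wide. The stronger peaks of the IDR list, those above its median signal, left 7 genes within 100 bp, and a 50-bp window left 7 for the IDR list and 15 for the pooled list. The narrower promoter window took the share of IDR summits in it to 21.4%. WGATAR within 100 bp took the motif share to 28.6% and GATA within 50 bp to 21.4%, against 7.14%; both are inside the wide interval of 14 summits and count among the 33, though they are 4 and 3 summits against 1. The causes were not tested, other than that a smaller window or list can only hold fewer. Leaving out mir-1831, chosen after seeing the data, took the pooled counts to 23 and 21. No paired analysis was possible because the samples form 1 group. Depth is unknown, and 14 summits limit every share given.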
